A study of Mus musculus with 2 samples.

Results

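The cells described here were selected on their UMI counts (unique molecular identifiers, each 1 captured transcript) as natural killer (NK) and innate lymphoid cells of the healing calvarial defect. A cell was kept with 500 to 140000 UMIs, 200 to 9500 genes and at most 15% mitochondrial UMIs. It was a member if it held at most 2 UMIs of Cd3d, Cd3e and Cd3g together, and either at least 4 UMIs of Nkg7, Klrb1c, Gzma and Ncr1 together or at least 2 UMIs each of Il7r and Gata3. Limits on Cd79a and Cd79b, Csf1r, Siglech, Ms4a2, S100a8 and S100a9, and the collagen genes Col1a1, Col1a2 and Col3a1 left out B cells, macrophages, plasmacytoid dendritic cells, basophils, neutrophils and fibroblasts. The gate held 369 of 17129 kept cells, of which 213 came from the library labelled GA and 156 from the control library.

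Both libraries were made from male C57BL/6J mice aged 2 months with a circular frontal bone defect of 1.8 mm diameter, and the tissue was taken 7 days after injury. The GA mice received gambogic amide, a small molecule, by intraperitoneal injection of 100 µL at 1.2 mg/kg in 10% DMSO, daily for 1 week from 24 h before injury according to the labels. The control mice received the DMSO vehicle. Each library pooled the digested defect tissue of 5 mice, so a group is 1 library. No difference between the groups could be tested, and every interval given below is a 95% interval that covers counting error only. In such libraries, more cells of a type and more RNA per cell cannot be told apart from the sums. The GA library held 182949385 UMIs in 9322 barcodes and the control library 214993030 UMIs in 8718 barcodes. The libraries shared 23 barcodes, of which 1 belonged to a gated cell.

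NK cells are lymphocytes without a rearranged antigen receptor that kill stressed or infected cells by releasing granzymes and perforin, and that secrete interferon gamma and chemokines. Their response is set by the balance between activating receptors such as NKp46 (Ncr1), NK1.1 (Klrb1c) and NKG2D (Klrk1) and inhibitory receptors. The Ly49 (Klra) family holds both kinds, with Klra4 and Klra8 activating in C57BL/6 mice, and CD94 (Klrd1) pairs with partners of both kinds. Eomes and T-bet (Tbx21) direct their development. Group 2 innate lymphoid cells (ILC2) depend on GATA3 and ROR alpha, sense interleukin 7 and interleukin 33, and secrete interleukin 5 and interleukin 13. ILC2 are also known to respond to neuropeptides.

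The label held for fewer than the full set of gated cells. In the GA library 139 of the 213 gated cells carried just 1 of the 4 NK genes of the rule, as did 57 of the 156 in the control library. That gene was Nkg7, which encodes a membrane protein of cytotoxic granules, in 139 and 56 of them, and Gzma in the other control cell. These single-gene cells expressed Mpo, Elane, Prtn3 and Ctsg, the genes of the primary granule proteases and peroxidase of immature granulocytes. Levels are given as CPM, the UMIs of a gene summed over the cells of a set and scaled to 1000000 UMIs of that set. Mpo stood at 4255 CPM in the GA library and 3530 in the control library, Elane at 5971 and 7253, and Prtn3 at 7718 and 6212. Of the single-gene cells, 122 in the GA library and 39 in the control library held at least 10 UMIs of the 4 granule genes. Of the rest, 7 and 8 held at least 4 UMIs of Pf4 and Itga2b, which mark megakaryocytes and platelets, and 10 and 10 held neither. They are therefore called single-gene cells here and given no other name.

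Cells with at least 2 of the 4 rule genes were taken as a set of their own. Of these, 2 cells per library held at least 10 UMIs of the granule genes as well and were set apart, with up to 2043 such UMIs in 1 GA cell and 1385 in 1 control cell. The remaining 67 GA cells and 92 control cells are called NK-like. The NK genes Klrd1, Klre1, Klra4, Klra8, Eomes and Prf1, which are outside the rule, summed to at least 4 UMIs in 67 of 67 GA and 88 of 92 control NK-like cells, against 0 of 139 and 2 of 57 single-gene cells and 68 of 128 and 37 of 124 T cells. Il7r and Gata3 without the NK genes admitted 5 cells in each library. The names and these counts were set after the values were seen.

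**Figure D1:**
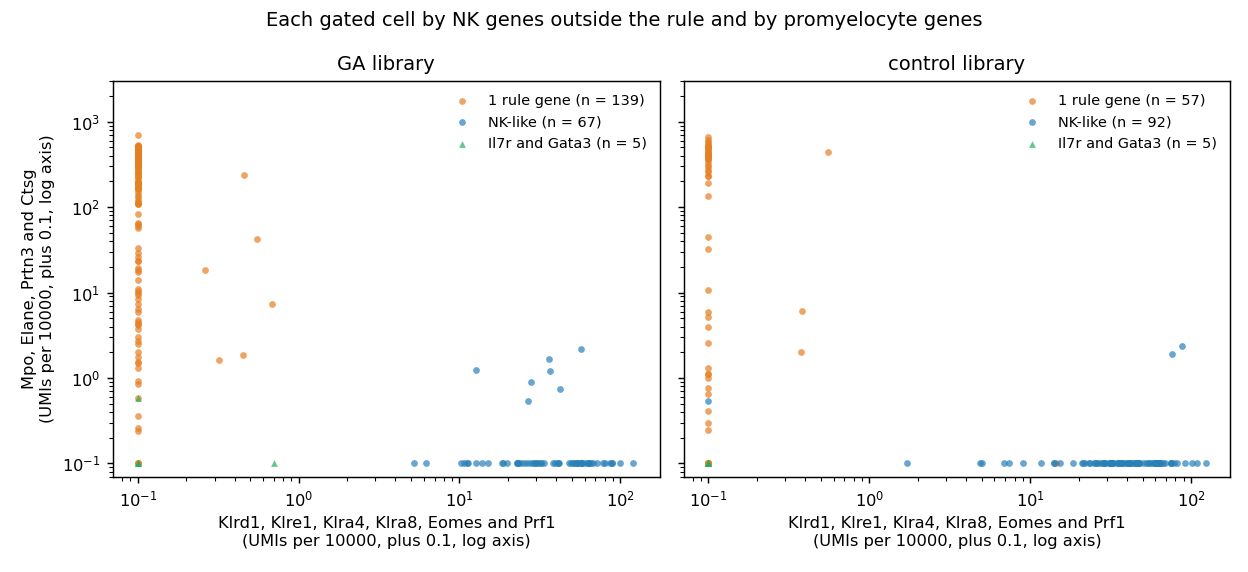
Each point is a gated cell of the GA (left) or control (right) library. The x axis sums 6 NK genes outside the rule and the y axis the 4 granule genes Mpo, Elane, Prtn3 and Ctsg, both as UMIs per 10000 UMIs of the cell plus 0.1 on log axes, and the 2 cells per library with both signatures are not drawn. Most NK-like cells lie along the bottom right and most single-gene cells along the left edge, apart from 2 control single-gene cells at the bottom right and 1 control NK-like cell at the left, with 122 of 139 GA single-gene cells with at least 10 granule UMIs.

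Depth also separated the sets. Single-gene cells had a median of 47555 UMIs in the GA library and 36173 in the control library, and NK-like cells a median of 8607 and 7318.5. T cells, taken with the same limits and at least 3 Cd3 UMIs, had 9395 and 6922.5. The 139 single-gene cells supplied 6774085 of the 7636482 UMIs of the gated GA cells, and the 57 of the control library 2111118 of 3046705. Each cell was also thinned to 2000 random UMIs to remove the depth difference. A Klrd1 UMI then remained in 70.1% of GA and 77.2% of control NK-like cells, in none of the single-gene cells of either library, in 34.6% and 20.3% of T cells, and in 0.106% and 0.148% of neutrophils. Thinning left out 1 control single-gene cell, 1 T cell of each library and 66 GA and 10 control neutrophils with too few UMIs. Mpo remained in 79.1% and 64.3% of single-gene cells.

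Nkg7 was not restricted to the gate among Mpo-expressing cells. The GA library held 452 kept cells with at least 100 UMIs of the 4 granule genes and the control library 170. Of these, 354 and 127 held at least 4 Nkg7 UMIs, and 100 and 33 were admitted as single-gene cells. Nkg7 stood at 404.5 CPM over the 452 cells and 489.3 over the 170, at 1667 and 1673 in NK-like cells, and at 73.5 and 93.2 in neutrophils. At the edge of the rule, 14 GA and 7 control cells held 4 UMIs of the rule genes and 12 and 5 held 3, just outside. Of the cells with 4 UMIs, 0 and 2 had at least 2 of the genes.

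The sequence before the start of 3 of the rule genes is shown. Nkg7 was read in both kinds of cell, Ncr1 in NK-like cells, and Gzma in NK-like cells and 1 control single-gene cell. Single-gene cells were defined by holding just 1 rule gene, so that contrast is no finding. The genomic sequence is from RefSeq, build GRCm38.p6, on the strand of the gene, up to the first base annotated as transcribed by RefSeq or GENCODE. Capitals mark the RUNX motif TGTGGT on either strand, a core element bound by the RUNX factors of lymphocytes and granulocytes. The T-box motif GGTGTGA, bound by factors such as Eomes and T-bet, was searched on both strands as well.
Nkg7, chr7:43436888-43437072, plus strand: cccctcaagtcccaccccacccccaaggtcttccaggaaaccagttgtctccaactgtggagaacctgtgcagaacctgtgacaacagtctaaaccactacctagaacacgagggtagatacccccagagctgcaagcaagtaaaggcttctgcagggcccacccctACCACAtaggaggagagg
Ncr1, chr7:4337465-4337714, plus strand: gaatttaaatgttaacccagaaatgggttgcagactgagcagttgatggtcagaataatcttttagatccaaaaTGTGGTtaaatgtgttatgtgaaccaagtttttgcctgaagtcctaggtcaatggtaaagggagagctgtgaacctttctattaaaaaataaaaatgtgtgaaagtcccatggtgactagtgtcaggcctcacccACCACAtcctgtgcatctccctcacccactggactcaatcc
Gzma, chr13:113100982-113101231, minus strand: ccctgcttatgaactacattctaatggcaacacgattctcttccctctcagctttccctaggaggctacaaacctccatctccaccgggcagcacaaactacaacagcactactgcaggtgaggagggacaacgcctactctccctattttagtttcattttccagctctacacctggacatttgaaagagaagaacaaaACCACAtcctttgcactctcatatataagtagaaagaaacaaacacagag
The RUNX letters occurred 1 time before Nkg7, 2 times before Ncr1 and 1 time before Gzma, and 14.05% of 32851 promoters hold them in the 250 bases before the start, a longer stretch than the 185 bases searched for Nkg7. The T-box letters occurred in none of the 3, and 3.33% of all promoters hold them. Nkg7 lies at chr7:43437073-43438249, Ncr1 at chr7:4337724-4345164 and Gzma at chr13:113093825-113100981 in the GENCODE annotation of GRCm38. A match is a description of the letters and not of binding.

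**Figure D2:**
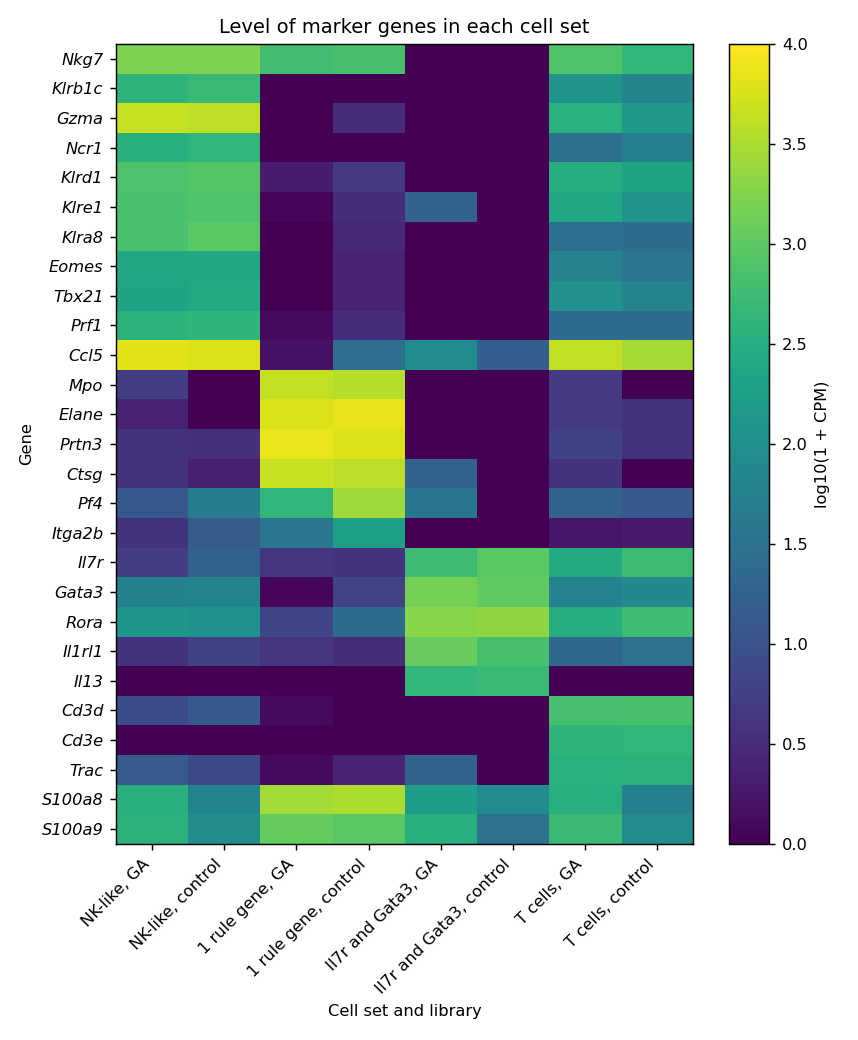
Marker genes (rows) in each cell set and library (columns), coloured by log10 of 1 plus CPM summed over the cells. Klrd1 is bright in NK-like cells, Rora and Il1rl1 in the 5 cells per library admitted by Il7r and Gata3, and Trac in T cells. Mpo, Elane, Prtn3 and Ctsg are bright in single-gene cells, which were not chosen on them. NK-like cells were limited in these granule genes, so their low level there is no finding. Klrb1c and Ncr1 are bright in NK-like cells, Gata3 in the 5 cells, and Cd3d and Cd3e in T cells. The limits chose the cells on these genes, so that pattern is no finding.

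The share of gated cells in each library depended on which of these sets was counted. The whole gate took 2.36% of kept cells in the GA library (2.05 to 2.69) and 1.93% in the control library (1.64 to 2.25), a ratio of 1.22 whose interval starts at 0.997. Single-gene cells made up 1.54% (1.29 to 1.81) and 0.704% (0.534 to 0.912), a ratio of 2.18 (1.61 to 2.97). NK-like cells went the other way, with 0.741% (0.575 to 0.941) in the GA library and 1.14% (0.917 to 1.39) in the control library, a ratio of 0.652 (0.477 to 0.892). The intervals of the single-gene share did not overlap between libraries, while those of the NK-like share overlapped slightly. Of all kept cells, in or outside the gate, 7.90% in the GA library and 3.18% in the control library held at least 10 UMIs of the 4 granule genes. With the rule raised to at least 2 of the 4 genes, the ratio of the whole gate was 0.663.

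Neutrophils, here cells with at least 3% of their UMIs from S100a8 and S100a9, took 52.9% of kept cells in the GA library and 25.1% in the control library. Among the 4254 GA and 6058 control cells under that limit, NK-like cells made up 1.58% (1.22 to 2.00) and 1.52% (1.23 to 1.86), a ratio of 1.04 (0.759 to 1.42). Single-gene cells made up 3.27% and 0.941% on that base, a ratio of 3.47 (2.56 to 4.71). Per T cell there were 0.523 NK-like cells in the GA library and 0.742 in the control library, a ratio of 0.706 (0.473 to 1.05). The T cells include 57 GA and 20 control cells with NK genes, described below, and the ratio without them was not computed. The NK-like share was thus lower in the GA library against all kept cells, and the intervals against the other bases span 1.

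The limit on Cd3 bears on this count. A set of 57 GA cells and 20 control cells held at least 2 of the NK genes with 3 or more Cd3 UMIs, and was counted with the T cells. They made up 44.5% of the 128 GA T cells (35.7 to 53.6) and 16.1% of the 124 control T cells (10.1 to 23.8). Their Cd3 sums were 12 or more in 45 GA and 9 control cells, whereas 61 of 67 GA and 80 of 92 control NK-like cells held no Cd3 UMI. With no Cd3 limit the NK-gene cells numbered 124 and 112 and their shares stood in a ratio of 0.992. The same change also raised the ratios among cells under the neutrophil limit and per T cell, both to above 1, as given in the last section. For the ratio per T cell, the added cells also stayed among the T cells.

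**Figure D3:**
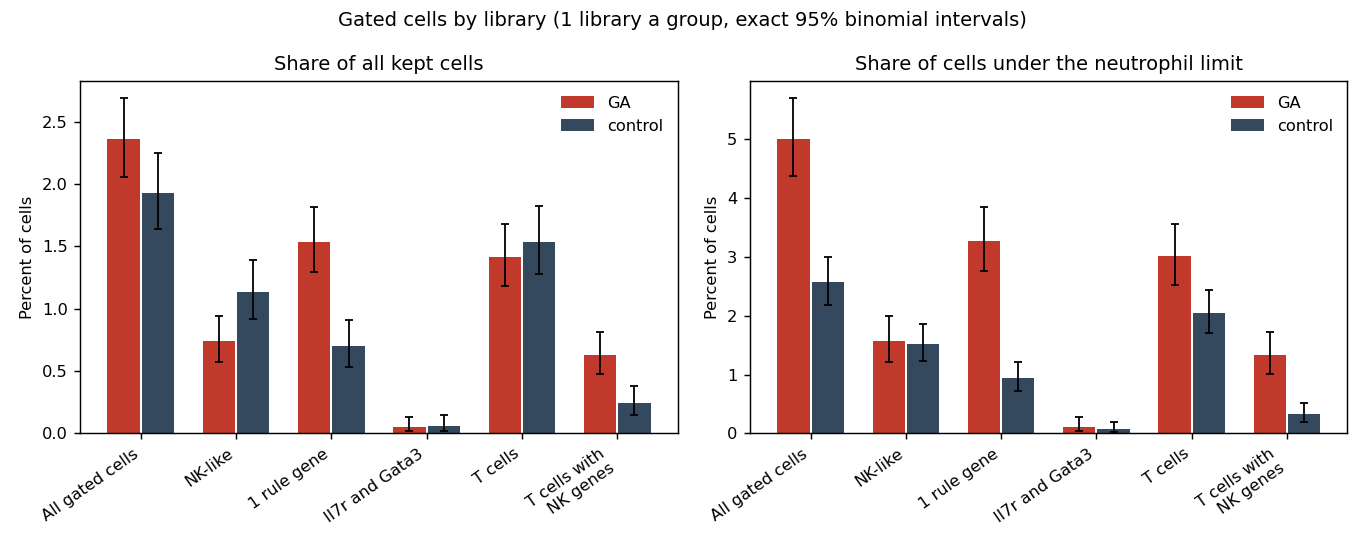
Share of cells in each set (bars) with exact 95% binomial intervals (lines), for the GA and control libraries, as percent of all kept cells (left) and of cells under the neutrophil limit (right). Single-gene cells are more frequent in the GA library on both bases, NK-like cells are 0.741% against 1.14% on the left and 1.58% against 1.52% on the right.

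Levels in NK-like cells rest on 687919 UMIs in the GA library and 792720 in the control library. The assay counts the 3′ end of transcripts, so these levels carry no factor for gene length. Of 4648 genes with at least 50 UMIs over both libraries, 60 were at least 2-fold higher and 63 at least 2-fold lower in the GA library, together 2.65% of those measured, and the median log2 ratio was -0.04. Over the whole gate the count was 697 of 9952 genes (7% of them), 124 higher and 573 lower, where the mix of sets differed between libraries as given above. In single-gene cells it was 433 of 9246 genes (4.68% of them).

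The cytotoxic machinery of NK-like cells was close to level between the libraries. Gzma, the granzyme of the rule, stood at 4687 CPM in the GA library and 4210 in the control library. Prf1, which encodes the pore-forming protein perforin, stood at 381 and 411, a log2 ratio of -0.11 (-0.35 to 0.13), and Nkg7 at a log2 ratio of 0.00 (-0.12 to 0.11). Gzmb stood at 391 and 309, a log2 ratio of 0.34 (0.08 to 0.60), and was read in 41 of 67 and 50 of 92 cells. Of 16 granule genes with at least 20 UMIs, 10 lay above 0 and the median log2 ratio was 0.10, beside -0.06 over all genes measured at that level. Gzmc was the exception past 2-fold, with 4 UMIs in the GA library against 47 in the control library, but 44 of those 47 came from 2 cells. The genes of the rule are a description here, since they chose the cells.

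Activating receptors and their adaptors were mostly a little lower in the GA library. Of 21 such genes 18 lay below 0, with a median log2 ratio of -0.30, and 0 were past 2-fold. The activating receptors Ncr1 and Klrb1c, at -0.28 and -0.33, are rule genes that chose the cells, and the count was not repeated without rule genes. Over all genes with at least 20 UMIs, 44.5% lay above 0. Over the whole gate the median of the activating list was -1.43, as it was for the Ly49, CD94 and checkpoint receptors. The activating list summed to 6735 and 7570 CPM in NK-like cells and to 809 and 1000 CPM in single-gene cells. Klrk1, the NKG2D receptor, stood at 596 CPM in the GA library and 694 in the control library, a log2 ratio of -0.22 (-0.41 to -0.03). Tyrobp, the adaptor DAP12 that carries the signal of several of these receptors, stood at 1792 and 1975. Cd244a was read in 33 of 67 GA cells and 59 of 92 control cells. A list of Ly49, CD94 and checkpoint receptors, drawn up as inhibitory, also holds the activating Klra4 and Klra8. Of its 13 genes 10 lay below 0, with a median of -0.33 and 0 past 2-fold, and without those 2 genes 8 of 11 lay below 0, with a median of -0.33. Klra8, the activating receptor Ly49H, stood at 701 and 940, a log2 ratio of -0.42 (-0.59 to -0.26). It was read in 45 of 67 and 56 of 92 cells, with a median of 5 and 4.5 UMIs. The 2 highest cells gave 60 of its 482 GA UMIs and 147 of its 745 control UMIs. Klrd1 stood at 752 and 863, a log2 ratio of -0.20 (-0.37 to -0.03). Klra7, another Ly49 receptor, had a higher sum in the GA library, with 430 UMIs against 354 in the control library. Ly49 genes are near-identical neighbours, and reads could be split between them.

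Of 9 secreted factors with at least 20 UMIs, 8 lay above 0 and Ltb below, with a median log2 ratio of 0.22. Ccl5, a chemokine that attracts T cells and monocytes, stood at 6917 and 6021 CPM and was read in 65 of 67 and 85 of 92 cells. Xcl1, the chemokine that attracts cross-presenting dendritic cells, stood at 606 and 329, a log2 ratio of 0.88 (0.65 to 1.11). It was read in 48 of 67 and 54 of 92 cells, and the 2 highest GA cells gave 38.8% of its GA UMIs. Ifng, which encodes interferon gamma, had 72 UMIs in each library, in 21 and 24 cells. Ltb, a lymphotoxin subunit, stood at 80.0 and 163, a log2 ratio of -1.03 (-1.51 to -0.56), in 25 and 35 cells. Areg and Osm were in 5 and 8 GA cells, and 2 cells held 80.8% and 82.9% of their UMIs.

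Transcription factors of the lineage were read in both libraries, some at similar levels and others not. Eomes stood at 246 and 252 CPM, a log2 ratio of -0.04, in 48 of 67 and 66 of 92 cells. Tbx21 stood at 214 and 275 CPM, a log2 ratio of -0.36 (-0.68 to -0.06), in 44 of 67 and 68 of 92 cells. Id2, which represses the E proteins of B and T cell fate, stood at 411 and 531, a log2 ratio of -0.37 (-0.59 to -0.15), in 61 and 87 cells. Tcf7 had 96 and 101 UMIs, Rora 85 and 86, and Zbtb16 31 and 26. Ikzf2, which encodes the Ikaros family factor Helios, was the 1 factor past 2-fold, with 281 UMIs in the GA library and 99 in the control library, a log2 ratio of 1.71 (1.37 to 2.06). It was read in 21 of 67 and 25 of 92 cells, so a similar fraction of cells held it, with up to 61 UMIs in a GA cell and 22 in a control cell. Irf8 stood at 756 and 442, and Runx3 at 573 and 401. Zeb2 and Klf2, factors of mature circulating NK cells, stood at 251 and 409 and at 198 and 334, log2 ratios of -0.70 and -0.76. Zeb2 was read in 41 of 67 and 59 of 92 cells, with a median of 2 and 1 UMIs and up to 15 and 28. Klf2 was read in 47 and 68 cells, with a median of 1 and 2 UMIs and up to 12 and 36. The 10 late maturation genes had a median of -0.43, with 7 below 0, and the 9 early ones a median of -0.22.

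Genes of the cell cycle and interferon lists lay mostly above 0. Of 20 cell cycle genes 17 were above 0, with a median of 0.47, and Mcm3, Ube2c and Cdk1 were past 2-fold. Cdk1 had 57 UMIs in 7 GA cells, 23 of them in 1 cell, and 32 in 5 control cells, 15 of them in 1 cell. Hmgb2, the chromatin gene of most UMIs in the list, was read in 61 of 67 and 75 of 92 cells, and Mcm3, a replication helicase gene, in 21 and 15. Mki67, the proliferation antigen, was read in 13 of 67 GA and 9 of 92 control cells, and 2 cells gave 49.6% and 80.1% of its UMIs. Mki67 itself had 123 UMIs in the GA library and 156 in the control library. After thinning to 2000 UMIs it was in 10.4% and 5.4% of NK-like cells. The S-phase histone genes Hist1h2ap and Hist1h2ae, outside the list and among the 10 lowest ratios, ran the other way. Hist1h2ap had 102 UMIs in 7 GA cells and 537 in 10 control cells, a log2 ratio of -2.19 (-2.51 to -1.88), and 1 cell of each library gave 83 and 188 of them. Hist1h2ae had 23 UMIs in 6 cells and 141 in 5, with 16 and 86 in 1 cell. Of 12 type I interferon response genes all 12 were above 0, with a median of 0.48, and 0 of the 6 with at least 50 UMIs were past 2-fold. Ifi27l2a, of the same family of response genes, was nearly absent from NK-like cells, at 7.27 and 12.6, against 602 and 762 in T cells. Nfkbia, the inhibitor of NF-kappa B, stood at 368 and 178, a log2 ratio of 1.05 (0.75 to 1.36), in 47 of 67 and 46 of 92 cells. Icam1, an adhesion ligand, had 78 and 39 UMIs in 28 and 27 cells. Vegfa, the angiogenic factor, had 95 and 54 UMIs, a log2 ratio of 1.02 (0.52 to 1.53).

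The other gene lists are given beside the all-gene median of -0.06. Cytokine receptors had a median of -0.03, with 10 of 20 above 0, and Il2rb, the shared receptor chain for interleukins 2 and 15, stood at 836 and 879 CPM. Homing and adhesion genes had a median of 0.10, with Icam1 past 2-fold. Immediate early genes had a median of 0.05, with Jun and Nfkbia past 2-fold, and hypoxia genes 0.11, with Vegfa higher and P4ha1, a collagen hydroxylase gene, lower past 2-fold. Genes of tissue-resident ILC1, ILC2 and ILC3 had medians of 0.24, 0.19 and -0.06 over 6, 5 and 3 genes. Under other processing choices these ranged from -0.43 to 0.48, from -0.55 to 0.23 and from -1.58 to 0.28, so their signs did not hold. Precursor genes had a median of 0.29 over 6 genes (-0.29 to 0.46 under those choices), with Notch1 past 2-fold at 37 UMIs in 26 cells against 19 in 15. The receptors for nerve signals had a median of -0.71 over 3 genes.

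**Figure D4:**
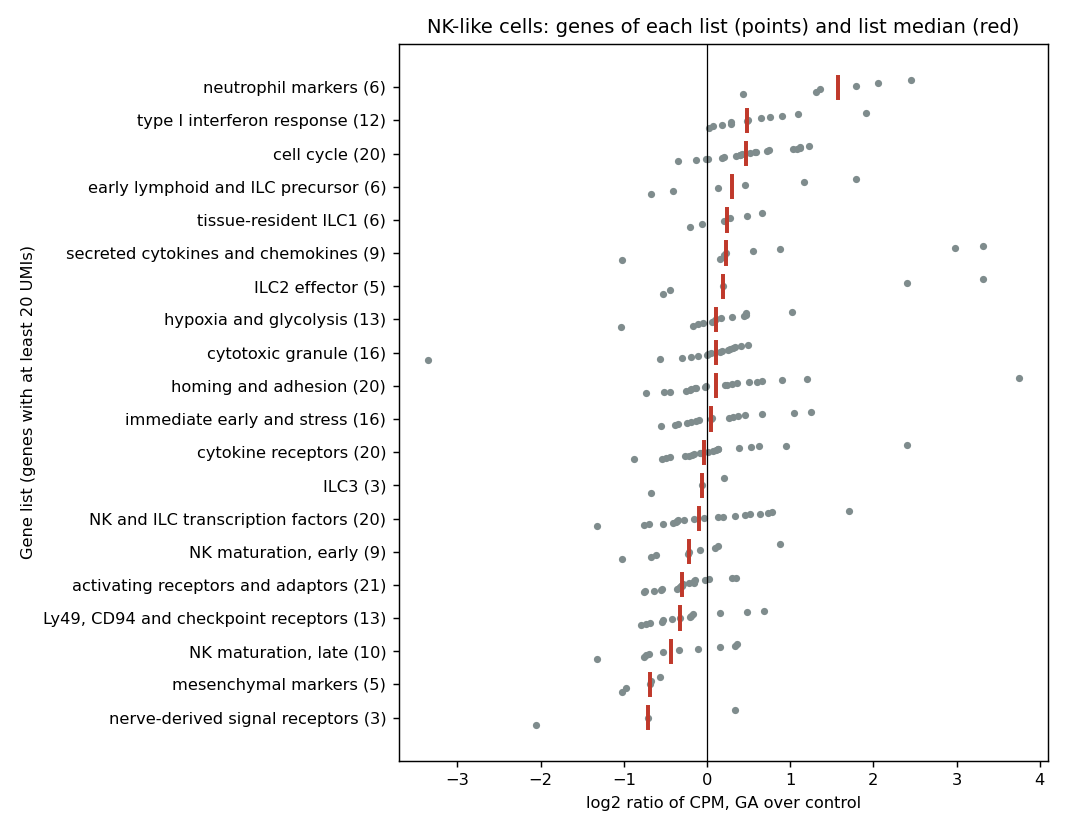
Log2 ratio of GA over control in NK-like cells for each gene with at least 20 UMIs (grey points) in each list, with the list median in red and the number of genes in brackets. Activating receptors and the Ly49, CD94 and checkpoint receptors lie mostly below 0 (medians -0.30 and -0.33), cell cycle and interferon genes mostly above (0.47 and 0.48), and neutrophil markers above (1.58).

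Genes with the highest ratios were often carried by few cells. Cxcl10, an interferon-induced chemokine, had 171 UMIs in the GA library against 8, yet 10 cells held it and 2 of them gave 79.5%. Cxcl2 had 117 UMIs against 19, of which 102 lay in 1 cell, and Cd83 52 against 10. In the same set 1 cell held 50 of the 51 UMIs of Cd14, a monocyte gene named after its values were seen. More cells carried Zbtb46, a transcription factor gene known from dendritic cells, with 57 UMIs in 18 GA cells against 10 in 4 control cells, and Yes1, a Src family kinase gene, with 51 in 17 against 9 in 6. Among the lowest ratios, Prkx, a protein kinase gene, had 16 UMIs in 13 GA cells against 62 in 41 control cells, as was Polk, a DNA polymerase gene, with 9 in 9 against 42 in 26.

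Neutrophil genes moved with the groups in these cells. S100a8 stood at 345 CPM in GA NK-like cells and 63.1 in control NK-like cells, and was read in 57 of 67 and 41 of 92. In T cells of the same libraries it stood at 337 and 52.9. A single GA NK-like cell gave 117 of the 237 S100a8 UMIs of that set. All 10 genes of the neutrophil list together summed to 868 and 216 CPM in NK-like cells, S100a9 was the most abundant, and 0 and 1 of them were at 0. The collagen gene Col1a1, whose share the gate limited, stood at 87.2 and 140 in NK-like cells and at 93.9 and 177 in T cells. The 8 mesenchymal genes, Col1a1 among them, summed to 310 and 517 CPM in NK-like cells and to 311 and 567 in T cells. Both sums were lower in the GA library. The part of these transcripts in the other ratios was not tested. Dendritic cell markers had a median log2 ratio of 3.05 over the 3 genes with at least 20 UMIs, and 1 GA cell held 27 of the 36 GA UMIs of H2-Aa, an antigen presentation gene.

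**Figure D5:**
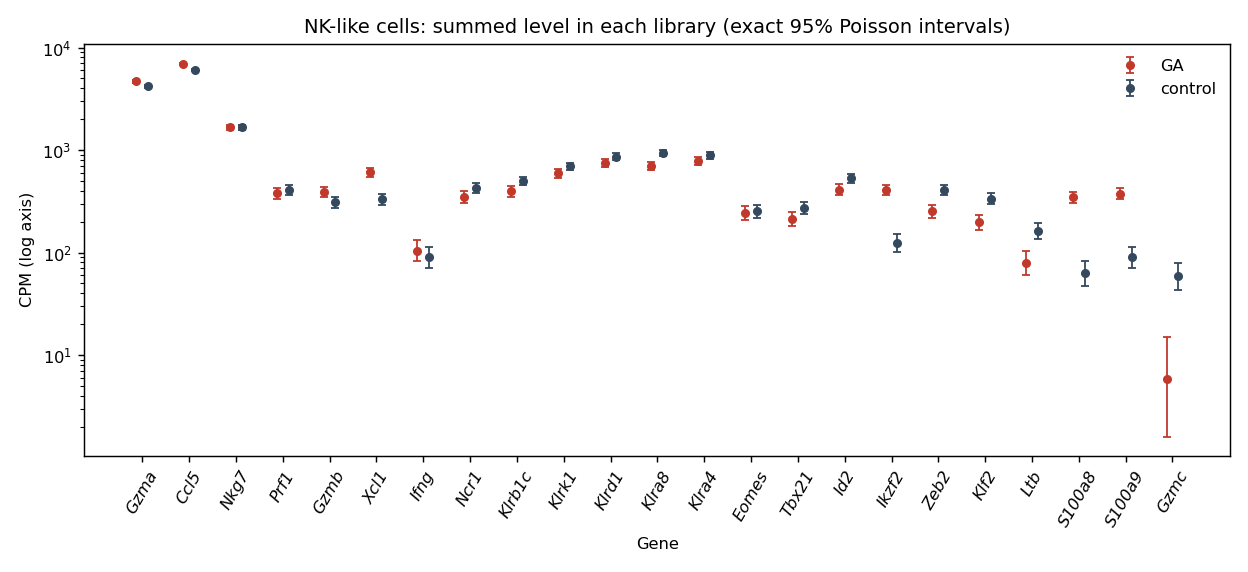
Level of named genes in NK-like cells of the GA and control libraries, as summed CPM on a log axis with exact 95% Poisson intervals. Gzma, Nkg7, Prf1 and Eomes lie close together, Ikzf2, Xcl1, S100a8 and S100a9 are higher in the GA library, and Ltb, Zeb2, Klf2 and Gzmc are lower there.

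NK-like cells and T cells of the same library differed in the genes that separate the lineages. Of 5164 genes with at least 50 UMIs in the pair of sets in each library, 123 were at least 2-fold higher and 150 at least 2-fold lower in NK-like cells in both libraries. The T cells include the 57 and 20 cells with NK genes given above. The limits chose the cells on Cd3, Il7r and the NK genes, so those are no finding. Outside the rule, Klra8 stood at 701 against 27.4 CPM in the GA library and at 940 in the control library, where T cells held 26 UMIs of it. Prf1 had 262 UMIs against 33 in T cells in the GA library and 326 against 26 in the control library. Styk1, a kinase-like receptor gene, stood at 142 against 3.61 and 156 against 14.4. Mef2c stood at 145 against 5.05 and 192 against 12.5. Lower in NK-like cells was Cxcr6, a tissue-homing receptor, at 7.27 against 147 and 3.78 against 337. Themis, a gene of thymocyte selection, was at 0 in NK-like cells of both libraries and at 230 and 259 in T cells, and Cd5 at 0 and 1.26 against 78.0 and 146. Trbc1, a T cell receptor beta constant gene, was in 54 of 67 and 80 of 92 NK-like cells at 353 and 377, against 694 and 533 in T cells, while Trac stood at 13.1 and 6.31 against 352 and 375. With cells thinned to 5000 UMIs 170 genes met the same limits. At that depth 12 of 67 GA and 19 of 92 control NK-like cells had too few UMIs, as had 16 and 20 T cells.

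The cells admitted by Il7r and Gata3 numbered 5 in each library, with 6302 to 20696 UMIs in the GA library and 7200 to 30379 in the control library. Il1rl1, the interleukin 33 receptor ST2, was read in 4 of 5 GA and 5 of 5 control cells, with 68 and 46 UMIs. Rora was read in 4 and 5 of them, with 113 and 149 UMIs. Il13 was read in 3 of 5 cells of each library, with 26 and 34 UMIs. Il5 had 61 UMIs in the GA library, all in 1 cell, and 2 in the control library, also in 1 cell. Areg, the growth factor amphiregulin, was in 3 cells of each, with 34 and 164 UMIs. Nkg7, Klrb1c, Gzma and Ncr1 were at 0 in both. Dendritic cell markers summed to 6660 CPM in the 5 GA cells and 14.8 in the 5 control cells, and their part in the other values was not tested. At 5 cells a library no difference in share was detectable, with 0.0553% (0.0180 to 0.129) of kept cells in the GA library and 0.0618% (0.0201 to 0.144) in the control library. Calca, which encodes the neuropeptide CGRP, had 56 UMIs in 1 GA cell and 53 in 2 control cells.

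Receptors for signals from nerves were sparse in NK-like cells. Ngfr, Tacr1, Vipr1, Chrna7, Npy1r and Mrgprb2 were at 0 of 213 GA and 0 of 156 control gated cells, which allows a share of cells with a UMI of up to 1.41% and 1.92%. Calcrl and Ramp1 together form the CGRP receptor. Calcrl had 17 UMIs in 14 GA NK-like cells and 32 in 17 control cells. Ramp1 had 5 UMIs in 3 GA cells and 24 in 15 control cells, a log2 ratio of -2.06 (-3.81 to -0.64). Most Ramp1 UMIs of the gate were in single-gene cells, 3373 of 3437 in the GA library and 825 of 903 in the control library, at 498 and 391 CPM. Ntrk3, a neurotrophin receptor gene, had 7 and 8 UMIs in NK-like cells. Ramp3 had 5 and 2 UMIs there, Adrb1 0 and 2, Ntrk2 1 and 0, and Sort1, Ramp2, Nmur1, Vipr2, Chrm3 and Sstr2 had 0 in both libraries. In the cells admitted by Il7r and Gata3, Ramp1 was in 4 of 5 cells of each library, with 8 and 12 UMIs, and Nmur1, the neuromedin U receptor, had 1 UMI in each.

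In single-gene cells Mpo, Elane, Prtn3 and Ctsg had log2 ratios of 0.27, -0.28, 0.31 and 0.18 (GA over control). Pf4, a platelet chemokine, stood at 425 and 2676 CPM and was read in 32 of 139 and 19 of 57 cells, with 2471 of its 2877 GA UMIs in 1 cell. Dntt, the terminal transferase of early lymphoid progenitors, had 845 UMIs in 19 GA cells against 14 in 2 control cells, a log2 ratio of 4.23 (3.48 to 5.11). Retnlg, a neutrophil gene, had 388 UMIs in 93 cells, 151 of them in 1 cell, against 20 in 17. Tnfsf11, which encodes the osteoclast factor RANKL, had 71 UMIs in 9 GA cells, 41 of them in 1 cell, against 1. Without the 5 cells of most UMIs in each library 264 genes were past 2-fold, beside 433.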

How the data were processed

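Cells of the defect tissue (a bone piece of 3 mm, digested 6 times) of 5 pooled mice per group were profiled by droplet 3′ RNA sequencing. The deposited matrices hold UMI counts per gene and barcode, made by the authors with Cell Ranger (7.0.1 per the file headers, reference mm10) and not normalized. Here cells were gated on these counts with the limits given above in Python 3.11.15 with scipy 1.17.1, without clustering. Doublets were not removed, and Scrublet in scanpy 1.11.5 was run as an alternative. Library sums per set were compared as log2 ratios with exact conditional binomial intervals, and shares with Clopper-Pearson intervals. A group at 0 was set at 3 UMIs. The 2-fold limit was read on genes with at least 50 UMIs, and lists on genes with at least 20 UMIs. The ratio was tested on simulated library sums that held counting error and no differences between cells. There the intervals held the true change in 94.5%, 96% and 94% of 200 changed genes for gated, NK-like and single-gene cells. The simulation cannot show how the ratio behaves for genes carried by few cells. The 35 lists held 381 genes, of which 380 were in the matrices. Genes were named as the rule and marker genes, the 4 of most UMIs and those past 2-fold in each list, the receptors for nerve signals, 8 transcription factors, and the 10 highest and 10 lowest ratios between libraries and against T cells among genes read in at least 5 cells. This was applied to NK-like and single-gene cells too, and other list genes were named after their values were seen. The members and lists were chosen with earlier results of these data known. With 1 library per group no test was made. The labels and the study's methods differ in the dose and the duration of gambogic amide, and the labels' values are given. Some genes that this rule names are not reported here.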

Additional observations from a re-analysis of the deposited data

Results flagged for a closer look

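NK-like cells and single-gene cells of the same gate went opposite ways between the libraries as shares of all kept cells: the share of kept cells in the GA library over that in the control library was 0.652 for NK-like cells and 2.18 for single-gene cells. Among cells under the neutrophil limit they did not, with ratios of 1.04 (0.759 to 1.42) and 3.47 (2.56 to 4.71). The difference was not tested, since each group is 1 library. Cells with NK genes and 3 or more Cd3 UMIs lie outside the gate, and they made up 0.631% of kept cells in the GA library (0.478 to 0.817) and 0.247% in the control library (0.151 to 0.381). With 1 library per group, outliers among samples could not be looked for.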

How the results depend on the processing

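No paired analysis was possible because each group has 1 library and no result comes from a test. Leaving out a replicate was not possible for the same reason. Requiring at least 2 of the 4 NK genes moved the ratio of GA to control from 1.22 to 0.663 for the share of gated cells, from 1.94 to 1.05 among cells under the neutrophil limit, from 1.32 to 0.717 per T cell, and from 1.25 to 0.665 for the NK arm of the rule, a reversal. With no limit on Cd3, an alternative added after seeing the data, the NK-like ratio moved from 0.652 to 0.992. It moved from 1.04 to 1.58 among cells under the neutrophil limit, and from 0.706 to 1.07 per T cell. In the ratio per T cell the added cells are counted on both sides, since they also stayed among the T cells. The other 110 values of shares and counts stayed within the interval of the ratio or within 1.5 times the count. Counts of genes past 2-fold depended on the UMI minimum: at 20 UMIs they were 1209 in gated cells, 480 in NK-like cells and 894 in single-gene cells, and at 200 UMIs 278, 10 and 118. With cells thinned to 5000 UMIs, which leaves fewer genes to measure, they were 317, 49 and 94. There, genes 2-fold apart from T cells in both libraries fell in number from 1560 to 396 for gated cells and from 273 to 170 for NK-like cells. At that depth 12 GA and 20 control gated cells, of which 12 and 19 were NK-like, also had too few UMIs. Without the 5 cells of most UMIs in each library the single-gene count was 264. Of 36 list medians, 18 each in gated and NK-like cells, 22 kept their sign under every alternative. Most of these were in gated cells. In NK-like cells the sign was kept by activating receptors (-0.34 to -0.13) and by Ly49, CD94 and checkpoint receptors (-0.42 to -0.06). Cell cycle (0.33 to 1.70), interferon response (0.21 to 0.67), early maturation, secreted factors and hypoxia genes kept it too. The other NK-like lists changed sign under some alternative, and late maturation ranged from -0.63 to 0.16. The median of ILC2 effector genes in gated cells was -1.17 and 0.28 with the highest Scrublet scores removed, and the cause was not tested. Levels of NK-like genes with few UMIs rest on few molecules.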
